A study of Mus musculus with 10 samples.

Results

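*Trp53*, which encodes the transcription factor p53, its 2 negative regulators *Mdm2* and *Mdm4*, and 7 canonical direct targets of p53 (*Cdkn1a*, *Ccng1*, *Zmat3*, *Phlda3*, *Eda2r*, *Trp53inp1* and *Sesn2*) were examined in hematopoietic stem cells (HSCs) with and without *Cited2*. These 10 genes were chosen by symbol, with no measured value in the rule, and all 10 were found among the 26146 genes of the count table. RNA was sequenced from LSK CD48-CD150+ HSCs of *Cited2* CTL mice (5 libraries, WT1 to WT5) and *Cited2* CKO mice (5 libraries, KO1 to KO5). The labels number the libraries within each genotype and do not state how many mice went into each. The mice were 8 to 12 weeks old and on a C57BL/6J background, and both genotypes carried floxed *Cited2* alleles. *Cited2* CKO mice also carried *Vav-iCre*, a recombinase expressed throughout the hematopoietic system, whereas *Cited2* CTL mice lacked Cre. The genotypes therefore differed in Cre as well as in *Cited2*, and effects of the 2 cannot be told apart here. The question addressed was whether p53, its inhibitors and its best-established targets differed between *Cited2* CTL and *Cited2* CKO HSCs, and how they compared with broader lists of p53 pathway genes.

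p53 is kept low in unstressed cells by *Mdm2*, a ubiquitin ligase that marks it for degradation, and by *Mdm4*, a related protein that binds p53 and blocks its activation of transcription. Because *Mdm2* is itself a p53 target, its transcript is part of a negative feedback loop, and much of p53 regulation acts on the protein, which RNA levels do not measure. In HSCs, p53 is known for limiting proliferation and self-renewal and for the response to DNA damage. *Cited2* is a transcriptional coregulator that binds CBP and p300, coactivators that p53 also uses.

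p53 binds a response element made of 2 adjacent decamers of 10 bases. The RefSeq promoter windows of GRCm38.p6, from 250 bases before to 50 bases after a start site, held 10 windows for 8 of the 10 genes. Windows with the p53 consensus element, with at most 1 mismatch in 20 letters, C at position 4 and G at position 7 of each decamer and no spacer between decamers, were found for *Cdkn1a* and *Ccng1*. The consensus is its own reverse complement, so 1 scan covered both strands. Of all 32851 windows in the table, 22 (0.067%) held such a match. Both stretches are printed 5′ to 3′, to show the matches among the 10 genes, with the matched letters in capitals. The *Cdkn1a* stretch is chr17:29090828-29090972 (plus strand), with the match 51 to 32 bases before the upstream of 2 RefSeq start sites. The *Ccng1* stretch is chr11:40755437-40755536 (minus strand), with the match 195 to 176 bases before the start. A match describes the letters and was not a measurement of binding, and the absence of a match in the other windows says only that these letters were not in these windows.
Cdkn1a: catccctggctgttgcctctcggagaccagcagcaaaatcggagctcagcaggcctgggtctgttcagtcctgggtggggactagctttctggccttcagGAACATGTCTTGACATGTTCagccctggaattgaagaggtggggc
Ccng1: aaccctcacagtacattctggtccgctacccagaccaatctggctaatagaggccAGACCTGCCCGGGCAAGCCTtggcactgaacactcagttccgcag

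The deposited counts summed to 3058690 to 4548795 in the *Cited2* CTL and 3500215 to 4315029 in the *Cited2* CKO libraries. Values are given as CPM, counts scaled to a common library total after TMM normalisation. *Cited2* itself was at 101 to 222 CPM in the *Cited2* CTL libraries and at 3.80, 4.21, 5.00 and 8.30 CPM in KO1, KO2, KO4 and KO5. The library labelled KO3 held 120.1 CPM of *Cited2*, within the *Cited2* CTL range, so the log2 fold change was -2.51 with all libraries (SE 0.94, adjusted p = 0.328) and -4.92 without KO3 (adjusted p = 1.8e-06). Here and below, SE is the standard error and adjusted p that of the edgeR quasi-likelihood test, corrected over all tested genes after Benjamini and Hochberg. Sexes were mixed: *Xist* was at 1250 to 1316 CPM in WT2, WT4, KO2 and KO3 and at no more than 19.7 CPM in the others, and the library labelled KO2 also held 119 CPM of the Y-linked *Ddx3y*. KO2 thus held RNA typical of both sexes, and whether it came from 1 mouse was not tested. Results are therefore given with all libraries and, for some of the genes, also without KO3 or without both KO2 and KO3. HSC markers summed to 1934 to 2229 CPM in *Cited2* CTL and 1731 to 1935 CPM in *Cited2* CKO libraries. Granulocyte and monocyte markers (10 genes, with *Ly6g* at 0 in every library) summed to 194 to 593 CPM in *Cited2* CTL and 202 to 401 CPM in *Cited2* CKO libraries, highest in WT5 and KO5. Of these 10 genes 7 were tested, with log2 fold changes from -1.47 to 0.95. None of the 7 was called, where 0.226% of all tested genes were called. Summed markers of the other lineages overlapped between the genotypes, at 46.2 to 112 and 45.6 to 63.8 CPM for erythroid, 178 to 221 and 179 to 226 CPM for megakaryocyte and 53.8 to 87.1 and 56.9 to 76.8 CPM for lymphoid markers. In bulk libraries fewer cells of a type and less RNA per cell cannot be told apart.

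Per kilobase of the deposited gene length, p53 itself had the most RNA of the 10 genes and *Zmat3* the least. Exon bases in GENCODE differ from these lengths, with 4045 against 1868 for *Trp53* and 14798 against 3490 for *Mdm4*. The order and the separations below therefore hold for the deposited lengths, and other lengths were not tested. In *Cited2* CTL HSCs *Trp53* was at 127 ± 4.72 CPM per kb (SD, n = 5), above every other member in every library. *Ccng1* followed at 56.5 ± 7.89 and *Mdm2* at 42.3 ± 1.41 CPM per kb, and their ranges overlapped. *Mdm4* at 33.5 ± 3.07 CPM per kb lay below *Mdm2* without overlap. Its range overlapped with that of *Cdkn1a*, at 25.9 ± 12 CPM per kb, which in turn overlapped with *Trp53inp1* at 22.9 ± 5.35 CPM per kb. *Sesn2* at 10.2 ± 1.06 CPM per kb was separate from both neighbours in this order. *Phlda3* at 3.36 ± 2.21, *Eda2r* at 1.93 ± 1.61 and *Zmat3* at 1.26 ± 0.32 CPM per kb overlapped with each other. These last 3 genes had few counts, 4 to 123 per library. The spread also differed between genes, with an SD of log2 CPM within genotypes of 0.106 for *Trp53* and 0.119 for *Mdm2*, 0.615 for *Cdkn1a* and 1.10 for *Eda2r*.

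**Figure D1:**
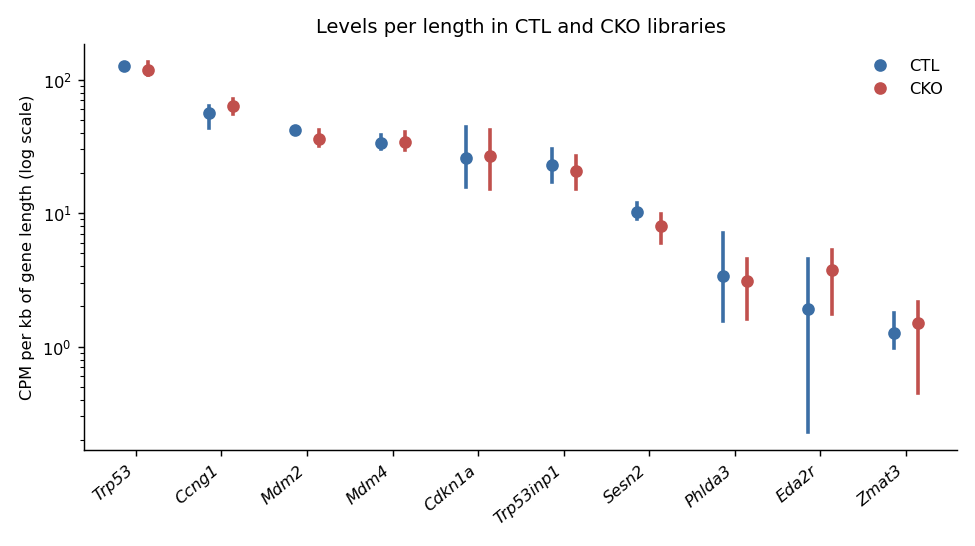
Levels of the 10 genes in CPM per kilobase of the deposited gene length on a log scale, with points for the mean and bars for the lowest to highest of 5 libraries of each genotype. Levels run from 127 CPM per kb for *Trp53* to 1.26 CPM per kb for *Zmat3* in *Cited2* CTL HSCs, and the bars of the genotypes overlap for each gene.

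*Trp53* lies on chromosome 11 from 69580359 to 69591873 (GRCm38). It was at 249.8, 239, 239, 236 and 225 CPM in WT1 to WT5 and at 203, 209.5, 207, 251 and 240.3 CPM in KO1 to KO5. KO1, KO2 and KO3 lay below every *Cited2* CTL library, KO4 lay above all of them, and the genotypes overlapped. Its log2 fold change was -0.10 (SE 0.07, adjusted p = 0.621), and its 95% interval allowed a level in *Cited2* CKO from 0.838 to 1.04 times that of *Cited2* CTL. Without KO2 and KO3 the log2 fold change was -0.041. An alternative that corrected each library for the GC content and the length of genes (GC and length offset) gave 0.018, with the opposite sign.

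Of the inhibitors, *Mdm2* had a log2 fold change below 0, with an unadjusted interval that did not reach 0 when all libraries were used. *Mdm4* had nearly the same mean in both genotypes. *Mdm2* (chromosome 10 from 117688875 to 117710758) was at 131, 125, 126, 134 and 124 CPM in WT1 to WT5 and at 109.8, 114, 96.7, 99.4 and 128 CPM in KO1 to KO5. KO1, KO2, KO3 and KO4 lay below every *Cited2* CTL library, while KO5 lay within their range. This amounted to a log2 fold change of -0.22 (SE 0.09, 95% interval -0.41 to -0.04), or 0.752 to 0.975 times the *Cited2* CTL level. It did not pass the test over all genes (adjusted p = 0.313). Without KO3 it was -0.18, with an unadjusted p of 0.0643 in the edgeR quasi-likelihood test (adjusted p = 0.471). Without KO2 and KO3 it was -0.19, with an unadjusted p of 0.0877 in that test (adjusted p = 0.622). Without KO5 it was -0.30 (adjusted p = 0.178), which was the lowest adjusted p of any of the 10 genes under any alternative tried.

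*Mdm4* (chromosome 1 from 132959484 to 133030561) was at 114, 105, 119, 112 and 134 CPM in WT1 to WT5 and at 141, 117, 126, 111 and 103 CPM in KO1 to KO5. The lowest and the highest of the 10 libraries were both *Cited2* CKO, and the genotypes overlapped throughout. On the log2 scale the change was 0.036 (SE 0.10, 95% interval -0.18 to 0.25, adjusted p = 0.913). Its sign was not fixed, with -0.033 without KO1, -0.0032 without WT2 and -0.093 with the GC and length offset.

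**Figure D2:**
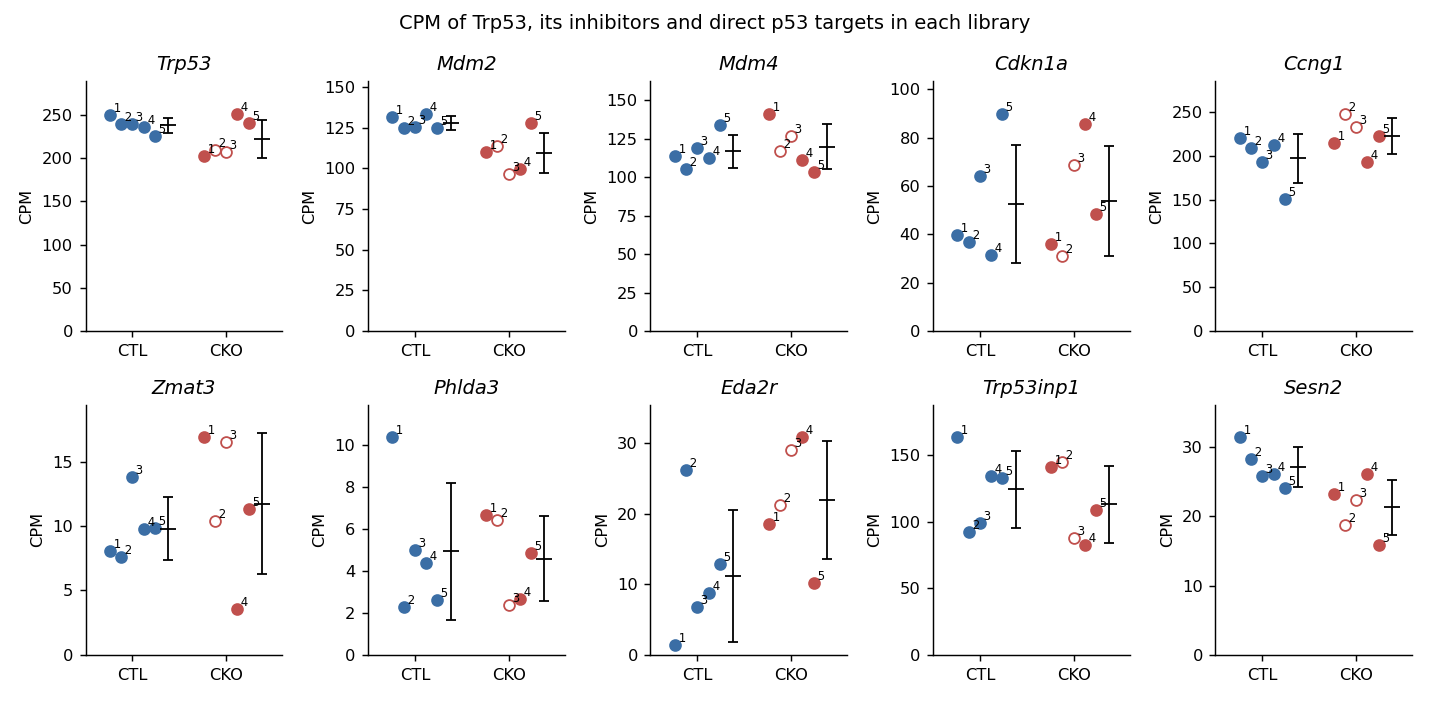
CPM of each gene in every library, with 5 *Cited2* CTL libraries in blue and 5 *Cited2* CKO libraries in red, the digit beside a point giving the library number and open points marking KO2 and KO3. Black bars show the mean and SD of each genotype. For *Mdm2* all *Cited2* CKO libraries but KO5 lie below the *Cited2* CTL libraries, and every gene overlaps between the genotypes.

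The targets that act on the cell cycle and on *Mdm2* did not pass the test. *Cdkn1a* encodes p21, the inhibitor of cyclin-dependent kinases through which p53 arrests the cell cycle, and lies on chromosome 17 from 29090976 to 29100727. It was at 39.8, 36.9, 64.1, 31.7 and 89.9 CPM in WT1 to WT5 and at 35.9, 30.9, 68.5, 85.5 and 48.4 CPM in KO1 to KO5. WT5 and KO4 were highest and KO2 and WT4 lowest, so both genotypes spanned nearly the same range. For *Cdkn1a* the log2 fold change was 0.029 (SE 0.32, adjusted p = 0.980), and the 95% interval from -0.65 to 0.71 covered 0.638 to 1.63 times the *Cited2* CTL level. Leaving out single libraries turned the sign, from -0.20 without KO4 to 0.32 without WT5. It was also below 0 without KO3 (-0.071), WT1 (-0.060), WT2 (-0.078) or WT4 (-0.11), and it was 0.18 under the GC and length offset. Of 3553 exon bases of *Cdkn1a*, 273 (7.68%) overlap a gene on the opposite strand that has no entry of its own in the count table.

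*Ccng1* encodes cyclin G1, which recruits a phosphatase to *Mdm2*, and lies on chromosome 11 from 40748552 to 40755311. It was at 219.7, 209, 193, 212 and 151 CPM in WT1 to WT5 and at 214, 248, 233, 193 and 222 CPM in KO1 to KO5. KO2, KO3 and KO5 lay above every *Cited2* CTL library, and WT5 lay below every other library. Between the genotypes the log2 fold change was 0.18 (SE 0.10, 95% interval -0.04 to 0.39, adjusted p = 0.497). It was 0.088 without WT5, 0.092 without KO2 and KO3, and 0.030 with the GC and length offset. *Mdm2* and *Ccng1*, both targets in the feedback on p53, thus had fold changes of opposite sign, neither of which was called.

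Among targets with other roles, *Sesn2* and *Eda2r* had the largest fold changes, in opposite directions. *Sesn2* encodes a stress-induced leucine sensor that restrains mTORC1 and lies on chromosome 4 from 132492032 to 132510501. It was at 31.4, 28.3, 25.9, 26.1 and 24.1 CPM in WT1 to WT5 and at 23.3, 18.8, 22.5, 26.2 and 15.9 CPM in KO1 to KO5. All *Cited2* CKO libraries but KO4 lay below every *Cited2* CTL library. This gave a log2 fold change of -0.35 (SE 0.18, 95% interval -0.73 to 0.03, adjusted p = 0.430) and -0.11 with the GC and length offset.

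*Eda2r* encodes a receptor of the tumor necrosis factor receptor family and lies on chromosome X from 97333840 to 97377216. It was at 1.34, 26.3, 6.76, 8.77 and 12.9 CPM in WT1 to WT5 and at 18.5, 21.3, 29.1, 30.9 and 10.1 CPM in KO1 to KO5. WT1, with 4 counts, was lowest, WT2 lay among the *Cited2* CKO libraries and KO5 among the *Cited2* CTL libraries. The log2 fold change was 0.95 (SE 0.51, adjusted p = 0.458), with a 95% interval from -0.14 to 2.04 or 0.908 to 4.11 times the *Cited2* CTL level. It ranged from 0.67 without WT1 to 1.53 without WT2, and was 0.80 without KO2 and KO3. Because *Eda2r* is X-linked and sexes were mixed, the fit was also made with log2 CPM of *Xist* as a covariate, which gave 1.06 (adjusted p = 0.378).

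*Trp53inp1* encodes a stress protein of the nucleus and autophagosome and lies on chromosome 4 from 11156431 to 11174379. It was at 164, 92.4, 99.1, 135 and 133 CPM in WT1 to WT5 and at 141, 145, 88.2, 82.3 and 109 CPM in KO1 to KO5. WT1 was highest and KO3 and KO4 lowest, with the other libraries interspersed. Its log2 fold change was -0.14 (SE 0.18, 95% interval -0.53 to 0.26, adjusted p = 0.803), -0.029 without WT1 and -0.33 with the GC and length offset.

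*Zmat3*, which encodes an RNA-binding zinc finger protein, and *Phlda3*, whose product competes with AKT for membrane lipids, were the targets with few counts. *Zmat3* (chromosome 3 from 32334792 to 32366014) was at 8.03, 7.58, 13.8, 9.75 and 9.85 CPM in WT1 to WT5 and at 16.9, 10.4, 16.5, 3.53 and 11.3 CPM in KO1 to KO5. KO1 and KO3 were above and KO4 below every *Cited2* CTL library. Its log2 fold change was 0.26 (SE 0.38, 95% interval -0.55 to 1.07, adjusted p = 0.818), with 0.11 without KO3 and 0.13 under the GC and length offset. *Phlda3* (chromosome 1 from 135766119 to 135769136) was at 10.4, 2.27, 5.00, 4.39 and 2.63 CPM in WT1 to WT5 and at 6.66, 6.43, 2.36, 2.65 and 4.84 CPM in KO1 to KO5. WT1 was highest and the *Cited2* CKO libraries lay within the *Cited2* CTL range. Its log2 fold change was -0.087 (SE 0.54, 95% interval -1.25 to 1.07, adjusted p = 0.963). The sign turned without WT1 (0.36), KO3 (0.077) or KO4 (0.052), and under the GC and length offset (0.15).

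None of the 10 genes was called at an adjusted p under 0.05 and a fold change above 20%, where 0.226% of all 14165 tested genes were called (edgeR quasi-likelihood test). All 10 had passed the filter on low counts. DESeq2's Wald test called 0 of the 10, where it called 2.54% of the genes it tested. At an unadjusted p under 0.05, 1 of the 10 was lower (*Mdm2*), where 7.08% of all genes were lower, and 0 were higher, where 5.8% were higher. The unadjusted p of *Mdm2* was above 0.05 without KO3 and without both KO2 and KO3. For 0 of the 10 did the genotypes not overlap, where 1.98% of all genes had every *Cited2* CKO library below and 1.35% above the *Cited2* CTL libraries. Of the 10 fold changes 5 were above and 5 below 0, with a median log2 of -0.029 beside 0.0065 for all genes. The intervals were narrow for *Trp53*, *Mdm2*, *Mdm4* and *Ccng1* and wide for *Cdkn1a*, *Zmat3*, *Phlda3* and *Eda2r*, and a p-value that misses the threshold does not show that the levels were equal. The counts of called genes stayed at 0 without KO3 and without both KO2 and KO3.

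**Figure D3:**
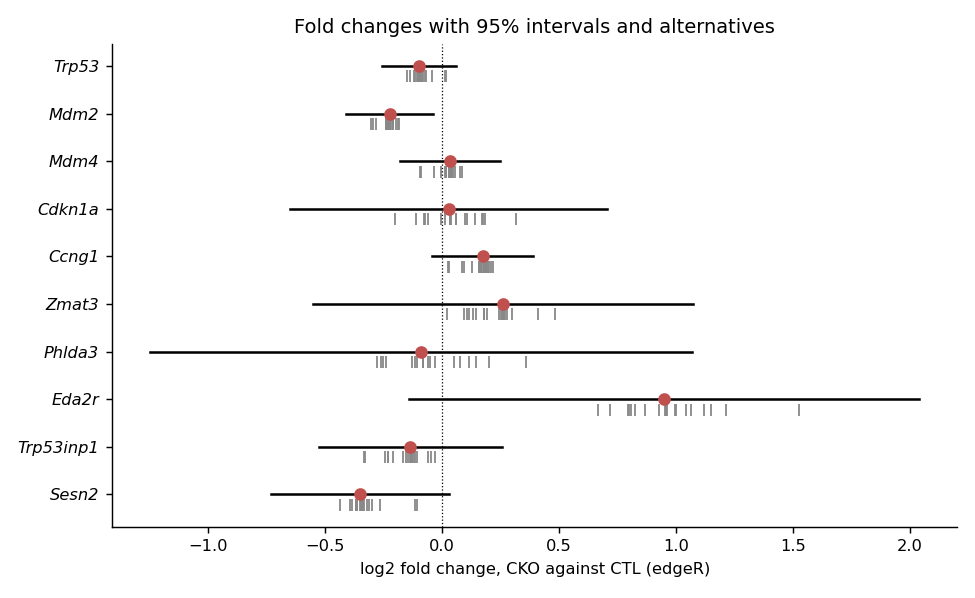
Log2 fold change of each gene, *Cited2* CKO against *Cited2* CTL (red point), with its 95% interval (black line) and, beneath it, a grey tick for each alternative analysis. With all libraries, the interval excludes 0 for *Mdm2* alone (-0.41 to -0.04), and ticks for *Trp53*, *Mdm4*, *Cdkn1a* and *Phlda3* fall on both sides of 0.

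Further direct targets of p53 were listed by role, 47 genes of which 46 were tested (*Zfp365* had too few counts). None was called by the edgeR quasi-likelihood test, against 0.226% of all genes, and DESeq2 called 2, *Ak1* and *Gfi1*, against 2.54% of all genes. Their fold changes were below 0 for 30 and above 0 for 16, with a median log2 of -0.19, beside 5 below and 5 above 0 and a median of -0.029 for the 10 genes. At an unadjusted p under 0.05, 9 of the 46 were lower and 3 higher, beside 7.08% and 5.8% of all genes. These lists were written with earlier results of these data known, so the counts describe these genes.

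Of 10 further cell cycle targets, 8 had a fold change below 0. At an unadjusted p under 0.05, 1 was lower, beside 7.08% of all genes. This was *Btg2*, an antiproliferative regulator of mRNA deadenylation, at 152, 139, 207, 132 and 207 CPM in WT1 to WT5 and at 76.8, 118, 131, 173 and 91.5 CPM in KO1 to KO5. All *Cited2* CKO libraries but KO4 were below the *Cited2* CTL range, and the log2 fold change was -0.51 (SE 0.20, adjusted p = 0.306). *Gadd45a*, a stress sensor, had -0.42 (adjusted p = 0.421) and *Plk2*, a polo-like kinase, had -0.42 (adjusted p = 0.509). Of 12 apoptosis targets 6 were above and 6 below 0. *Ei24*, a membrane protein of the endoplasmic reticulum, had 0.27 on the log2 scale (adjusted p = 0.356), *Apaf1*, the core of the apoptosome, had 0.26 (adjusted p = 0.521), and *Bbc3*, which encodes the BH3-only protein PUMA, had -0.39 (adjusted p = 0.545). Under the GC and length offset *Apaf1* had 0.13, *Bbc3* -0.089 and *Ei24* 0.305. The same offset gave -0.49 for *Btg2*, -0.42 for *Gadd45a* and -0.43 for *Plk2*.

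The 5 DNA repair targets included fold changes of both signs. *Rrm2b*, the p53-inducible subunit of ribonucleotide reductase, had 0.48 on the log2 scale (SE 0.19, adjusted p = 0.318), with KO4 and KO5 above every *Cited2* CTL library. For *Rrm2b* the GC and length offset gave 0.37. *Xpc*, the damage sensor of nucleotide excision repair, had -0.22 (adjusted p = 0.328), and *Polk*, a translesion polymerase, had 0.31 (adjusted p = 0.503), which became -0.12 and 0.20 under the GC and length offset. Among 17 tested targets with roles in metabolism, stress and signaling, 12 were below 0. At an unadjusted p under 0.05, 6 were lower and none higher, beside 7.08% and 5.8% of all genes. For 1 of the 46 tested further targets the genotypes did not overlap, beside 1.98% of all genes with the *Cited2* CKO libraries lower. This was *Ak1*, an adenylate kinase, at 44.8, 44.5, 41.7, 33.4 and 29.3 CPM in WT1 to WT5 and at 22.1, 23.0, 27.4, 27.3 and 27.7 CPM in KO1 to KO5. Every *Cited2* CKO library lay below every *Cited2* CTL library, and the log2 fold change was -0.60 (SE 0.16, adjusted p = 0.142 in edgeR and 0.0409 in DESeq2). It was -0.44 with the GC and length offset (adjusted p = 0.617). *Pml*, the scaffold of PML nuclear bodies, had -0.19 (adjusted p = 0.320) and *Cpt1c*, a carnitine palmitoyltransferase isoform at 1.47 to 8.59 CPM, had -1.11 (adjusted p = 0.337). The GC and length offset gave -0.037 for *Pml* and -0.92 for *Cpt1c*.

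The 2 p53 targets described in HSCs had fold changes of opposite sign. *Gfi1*, a zinc finger repressor that restrains HSC proliferation, was at 14.7, 12.6, 8.53, 10.7 and 26.5 CPM in WT1 to WT5 and at 47.1, 41.3, 16.1, 31.7 and 37.8 CPM in KO1 to KO5. KO1, KO2, KO4 and KO5 lay above every *Cited2* CTL library, and KO3, the library that kept *Cited2* RNA, lay within their range. The log2 fold change of *Gfi1* was 1.24 (SE 0.32, adjusted p = 0.123 in edgeR and 0.0169 in DESeq2), 1.42 without KO3 (adjusted p = 0.0527) and 1.47 with the GC and length offset (adjusted p = 0.190). *Ndn* encodes necdin, a protein known for HSC quiescence. It was at 75.2 to 94.3 CPM in the *Cited2* CTL and 60.9 to 78.4 CPM in the *Cited2* CKO libraries. The log2 fold change of *Ndn* was -0.23 (adjusted p = 0.379), and -0.33 with the GC and length offset.

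**Figure D4:**
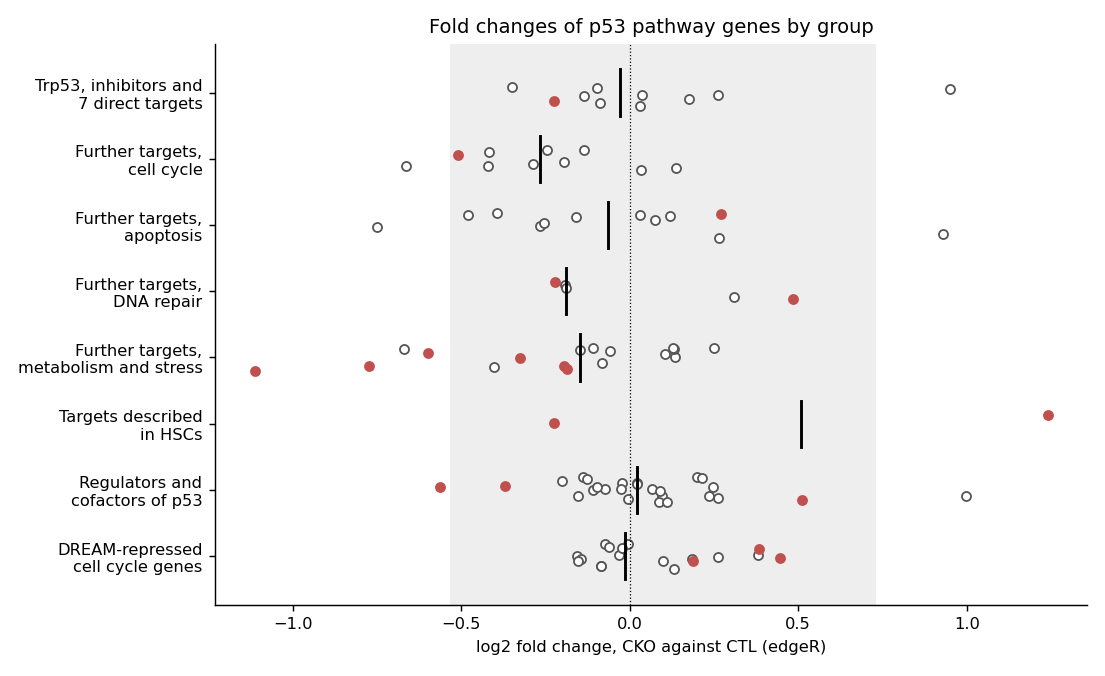
Log2 fold changes, *Cited2* CKO against *Cited2* CTL, of single genes (points) in the 10-gene group and in 7 lists of other p53 pathway genes, with the median of each as a black line, filled points for an unadjusted p under 0.05 and a grey band from the 5th to the 95th percentile of all tested genes (-0.53 to 0.73). The 10 genes have a median of -0.029 and 1 filled point (*Mdm2*). Points outside the band include *Eda2r* at 0.95 and *Gfi1* at 1.24 above it and *Cpt1c* at -1.11 and *Ak1* at -0.60 below it.

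Genes that act on p53 were examined next. Of 29 regulators and cofactors, 26 were tested, 14 above and 12 below 0 with a median log2 fold change of 0.021, and none was called by edgeR or DESeq2. At an unadjusted p under 0.05, 2 were lower and 1 higher, beside 7.08% and 5.8% of all genes. *Cdkn2a*, whose product ARF inhibits *Mdm2*, was at 0 in every library except KO5, which held 3 counts, and it was not tested. *Cul9*, a cytoplasmic anchor of p53, had a log2 fold change estimated at -0.56 (SE 0.17, adjusted p = 0.188). All *Cited2* CKO libraries but KO5 lay below the lowest *Cited2* CTL library, and KO3 was lowest. The log2 fold change of *Cul9* was -0.39 without KO2 and KO3 and -0.33 under the GC and length offset. *Trp53bp2*, which encodes the p53 cofactor ASPP2, was at 36.8 to 47.0 CPM in the *Cited2* CTL and 23.2 to 35.9 CPM in the *Cited2* CKO libraries, without overlap. It was 1 of the 26 tested, beside 1.98% of all genes with the *Cited2* CKO libraries lower. The log2 fold change of *Trp53bp2* was -0.37 (adjusted p = 0.327), and -0.33 under the GC and length offset. *Setd7*, a lysine methyltransferase, had 0.51 (SE 0.19, adjusted p = 0.291). For *Setd7* the value was 0.35 without KO2 and KO3 and 0.42 under the GC and length offset.

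Cell cycle genes that p53 and p21 repress through the DREAM complex were the last group, 18 genes including *Lin54* and *Rbl1*, which encode parts of such complexes. Their median log2 fold change was -0.015, with 8 above and 10 below 0, and none was called by edgeR. At an unadjusted p under 0.05, 3 were higher and none lower, beside 5.8% and 7.08% of all genes. *Ccnb1*, the mitotic cyclin B1, was at 82.6, 88.9, 72.6, 89.5 and 85.1 CPM in WT1 to WT5 and at 95.1, 115, 116, 119.7 and 125 CPM in KO1 to KO5. All *Cited2* CKO libraries lay above all *Cited2* CTL libraries, for 1 of the 18 genes beside 1.35% of all genes. The log2 fold change of *Ccnb1* was 0.45 (SE 0.10, adjusted p = 0.0781 in edgeR and 0.00424 in DESeq2). In edgeR it was 0.43 without KO2 and KO3 (adjusted p = 0.232) and 0.35 under the GC and length offset (adjusted p = 0.643). *Bub1*, a kinase of the spindle checkpoint, had 0.38 (adjusted p = 0.178), with KO1 below every other library and the other 4 *Cited2* CKO libraries above. *Ccna2*, cyclin A, had 0.19 (adjusted p = 0.379). The GC and length offset gave 0.25 for *Bub1* and 0.12 for *Ccna2*.

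Over the 10 libraries, the genes whose log2 CPM was most like that of *Trp53*, among 9967 genes whose mean log2 CPM reached 4, were *Nudt16l1* (Pearson r = 0.965), *Ech1* (r = 0.958) and *Nubp1* (r = 0.953). For *Cdkn1a* they were *Chil3* (r = 0.939), *Cenph* (r = 0.895) and *Trib1* (r = 0.891). *Chil3*, a chitinase-like gene of granulocytes and macrophages, was highest in WT5 (77.0 CPM), in which *Cdkn1a* and the summed granulocyte and monocyte markers were also highest, and then in KO4 (44.4 CPM), whose summed markers were not high. These correlations run over libraries of both genotypes and both sexes, so differences between these can enter them, the genes were picked as the highest of many, and the part of other cell types in the level of *Cdkn1a* was not tested.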

How the data were processed

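RNA-seq of sorted HSCs was analysed in 10 libraries, 5 per genotype, grouped by their labels. The authors aligned reads to GRCm38 (HISAT2 and mm10 in the submitters' processing notes), counted reads per gene and deposited counts without normalization, together with gene lengths in bases. The annotation, use of strand, treatment of multi-mapping reads and any removal of duplicates are not given in the sources used here, so genes that overlap or share reads with a near copy are uncertain. Library totals of 3058690 to 4548795 counts limit precision for genes of low expression, and other sources of spread were not separated from this.

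The counts were tested with edgeR 4.0.16 in R 4.3.3. The filter filterByExpr kept 14165 of 26146 genes, libraries were scaled by TMM, and genotypes were compared with the two-sided quasi-likelihood F test (robust) with Benjamini-Hochberg adjustment over all tested genes. A gene was called at an adjusted p under 0.05 and a fold change above 20%. The common biological coefficient of variation was 25.3%. All 20 pairs of libraries of one genotype differed by more than sampling noise (chi-square per degree of freedom 4.64 to 12.2), so each library counted once.

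The 10 genes, the lists and the tests were chosen with earlier results of these data known. The genes named were the 10, *Cited2*, the genes called in each list or, with none called, its 3 with the smallest p, and the 3 most correlated with *Trp53* and with *Cdkn1a*. Markers and *Xist*, *Ddx3y*, *Cdkn2a*, *Zfp365*, *Lin54* and *Rbl1* were named in addition, after their values were seen. Alternatives were DESeq2 1.42.0 (Wald test), limma-voom (limma 3.58.1), DESeq2 size factors, no filter or at least 10 counts in every library, the replicate number as a block, *Xist* as a covariate, a loess offset for GC content and gene length (span 50%), other adjusted p thresholds and each library left out. Leaving out KO2 and KO3 together was added after the data were seen. Such an offset may take away genotype effects that track either property. Scripts were tested on simulated data. There the edgeR test called 1 of 50 genes changed 1.25-fold, 18 of 50 changed 1.5-fold, 33 of 50 changed 2-fold and 34 of 50 changed 3-fold. Many true changes of these sizes were thus not called in the simulation. Its changed genes were drawn at random from all tested genes, so these shares do not describe the 10 genes. Positions came from GENCODE and promoter sequences from RefSeq (GRCm38.p6).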

Additional observations from a re-analysis of the deposited data

Results flagged for a closer look

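In 74 groups of 5 libraries (the genes named by rule, in each genotype), 2 held a library far from the rest by Dixon's criterion, which chance alone meets in about 1 of 20 groups. *Cited2* was at 120.1 CPM in KO3, where the next highest *Cited2* CKO library had 8.30 CPM. *Bub1* was at 85.6 CPM in KO1, where the next lowest *Cited2* CKO library had 127 CPM. None of the 10 genes of the p53 group had such a library in either genotype.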

How the results depend on the processing

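No gene of the 10 was called under any alternative. Leaving out 1 library at a time gave log2 fold changes of -4.92 to -2.23 for *Cited2*, -0.15 to -0.07 for *Trp53*, -0.30 to -0.18 for *Mdm2*, -0.033 to 0.087 for *Mdm4*, -0.20 to 0.32 for *Cdkn1a*, 0.09 to 0.22 for *Ccng1*, 0.09 to 0.49 for *Zmat3*, -0.28 to 0.36 for *Phlda3*, 0.67 to 1.53 for *Eda2r*, -0.24 to -0.03 for *Trp53inp1* and -0.43 to -0.27 for *Sesn2*. *Cited2* was called with limma-voom (-3.99), without KO3 and without KO2 and KO3 (-4.82). With the GC and length offset, the log2 fold change turned sign for *Trp53* (0.018), *Mdm4* (-0.093) and *Phlda3* (0.15), and with limma-voom for *Cdkn1a* (-0.0032) and *Phlda3* (0.12). The cause was not tested. DESeq2 called 1 gene each among the metabolism targets (*Ak1*), the HSC targets (*Gfi1*) and the DREAM genes (*Ccnb1*), and an adjusted p under 0.1 called 1 DREAM gene (*Ccnb1*). Over all genes edgeR called 17 higher and 15 lower, DESeq2 148 and 193, edgeR with the offset 5 and 3, and edgeR without KO3 27 and 15.

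The labels give libraries of both genotypes the same numbers, but same-numbered libraries did not deviate together (correlations of 0.0096, -0.095, 0.21, 0.0027 and 0.19, with 1 of 5 correlating best with its own number). The replicate block called 15 higher and 9 lower genes and none of the 10, with -0.23 for *Mdm2* (adjusted p = 0.390) and 1.21 for *Eda2r* (adjusted p = 0.395). Together with the offset the replicate block gave 10 higher and 3 lower, called 1 HSC target (*Gfi1*), and gave 0.015 for *Trp53*, -0.091 for *Mdm4* and 0.20 for *Phlda3*.

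Counts were low for *Phlda3* (9 to 31), *Zmat3* (12 to 71) and *Eda2r* (4 to 123), whose intervals were wide, as was that of *Cdkn1a* at 119 to 411 counts, and the share of counting error in these widths was not tested. *Phlda3* and *Eda2r* had fewer than 10 counts in a library, so that filter gave them no value.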
